A study of Rattus norvegicus with 8 samples.

Results

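Transcription factors that build and maintain retinal ganglion cells were followed in a comparison of large with small ganglion cells of the rat. Ganglion cells are the neurons whose axons form the optic nerve. The list held Pou4f2, Pou4f3, Isl1, Isl2, Atoh7, Ebf1, Ebf3, Eomes and Sox4, and a factor was taken when a probe carried its symbol alone. Of the 9 factors, 8 were measured, with 13 probes between them, among 14802 genes in all. Eomes, a T-box factor of melanopsin ganglion cells, had no probe assigned to it alone and was not analysed here. Sox4 had 6 probes, which were averaged, and the other 7 factors had 1 probe each.

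Each of the 8 arrays set RNA of the large sorted cells, labelled Cy5, against RNA of the small sorted cells, labelled Cy3. The cells had been filled by a fluorescent tracer carried back along their axons, sorted by flow cytometry with a blocker of new transcription present, and their RNA was amplified linearly before labelling. The sources used here state neither strain nor age of the rats. Arrays go by their title numbers, 39 to 43 and 69 to 71, and form 1 group, since all compare the same pair of RNAs. Every value below is a log2 ratio of the 2 channels of an array. A ratio holds no expression level, so whether a factor was expressed at all could not be read from these values, and neither could the labelled cell type. In sorted material a lower share of cells of a type and less RNA per cell cannot be told apart.

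Which cells stand on top of the ratio is unknown, so values are called positive or negative only. If large cells (channel 1) are on top, a positive value means more RNA in large cells. By their mutual correlations the arrays split into 4 (39, 41, 43 and 70, here set 1) and another 4 (40, 42, 69 and 71, here set 2). Arrays correlated positively within the sets (12 pairs, Pearson r over all probes from 0.16 to 0.68), and 15 of the 16 pairs between the sets correlated negatively (r from -0.29 to 0.16). As Spearman correlation the lowest such pair reached -0.41. The series text mentions a dye swap, yet the labels give the same dyes on all arrays, so the contrast of large with small cells and a difference between dye orientations cannot be told apart. Differences between the sets are given as descriptions, because the sets were found in these same values. Calls made with the signs of set 2 turned are likewise no test of them. Fits with the set as a covariate use the same sets, so their intervals, p-values and calls are also given as descriptions. Arrays 39 and 40 had the largest SDs over all probes, 0.70 and 0.78, against 0.37 to 0.52 on the other arrays. By the median absolute deviation array 39 was also widest (0.302), while array 40 (0.255) lay below array 42 (0.286).

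In the developing retina of the mouse, Atoh7 makes progenitors able to become ganglion cells, and Pou4f2 and Isl1 then switch on the programme of the differentiating neuron, including axon genes. The paralogs Pou4f3 and Isl2, and the early B-cell factors Ebf1 and Ebf3, act later or in part of the ganglion cells. Several of these factors stay on in adult ganglion cells, and their combinations mark types that differ in body size, dendrites and targets in the brain. Isl1 is not restricted to ganglion cells, as bipolar and cholinergic amacrine cells carry it too.

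The promoters of the paralogs Pou4f2 and Pou4f3 are shown because this pair lay on opposite sides of 0 in each set of arrays. Both are from RefSeq (build GRCr8) and run from 250 bases before to 50 bases after the annotated start, on the plus strand, Pou4f2 at chr19:46390708-46391007 and Pou4f3 at chr18:34640941-34641240. Capitals mark E-boxes (CANNTG, the same on both strands), the letters that basic helix-loop-helix factors such as Atoh7 recognise.
Pou4f2: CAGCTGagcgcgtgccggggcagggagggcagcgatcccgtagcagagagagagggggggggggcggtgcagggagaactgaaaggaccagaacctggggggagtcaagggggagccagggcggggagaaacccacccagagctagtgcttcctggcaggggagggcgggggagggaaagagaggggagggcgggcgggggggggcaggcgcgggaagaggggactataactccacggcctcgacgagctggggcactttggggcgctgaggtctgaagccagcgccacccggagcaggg
Pou4f3: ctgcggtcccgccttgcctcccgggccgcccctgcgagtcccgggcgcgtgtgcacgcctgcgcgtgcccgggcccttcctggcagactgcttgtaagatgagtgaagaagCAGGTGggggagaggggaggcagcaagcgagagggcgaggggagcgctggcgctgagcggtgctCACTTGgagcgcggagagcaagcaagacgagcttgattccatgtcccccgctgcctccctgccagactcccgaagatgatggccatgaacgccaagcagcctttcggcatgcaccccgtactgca

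The Pou4f2 window held 1 E-box, at its first base, and the Pou4f3 window held 2, at bases 112 and 176. The annotated Pou4f3 start falls on the letters ATG, as in a start codon, so its window may hold transcribed leader in place of promoter. Promoter windows were found for 8 of the 9 factors, Sox4 being the one without. An E-box was present in 5 of these 8 windows, in Atoh7, Ebf1 and Isl1 besides the pair above, and in 72.1% of 33469 promoter windows of the same length. The homeodomain core TAATTA (its own reverse complement) was in 0 of the 8 windows and in 5.36% of all windows. The SOX letters AACAAAG, searched on both strands, were in 0 of the 8 and in 5.98% of all. These letter matches are descriptions of the windows only.

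None of the 8 measured factors was called as different from 0 on the mean of the 8 arrays. Opposite signs in the sets, as for Pou4f2 and Pou4f3, cancel in this mean wholly or in part. An uncalled mean is therefore no statement that large and small cells were alike. limma called 0 of 8 at an adjusted p under 0.05, where 2.12% of all genes were called, and 0 of 8 had an unadjusted p under 0.05, where 13.1% of all genes did. The adjusted p ran from 0.575 for Ebf1 to 0.992 for Pou4f2. The mean ratio was negative for 6 factors, where 52% of all genes had a negative mean, and positive for 2, with a median of -0.04, beside a median of -0.01 over all genes. No factor had the same sign on every array, while the mean over the 8 factors was negative on 8 of 8 arrays, from -0.16 to -0.01. Their median was positive on array 42 (0.01) and array 69 (0.12), where Pou4f3 stood at -1.76 and -1.20. The p-values measure the spread between arrays, some of which are technical subreplicates by the labels, without a statement of which.

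**Figure D1:**
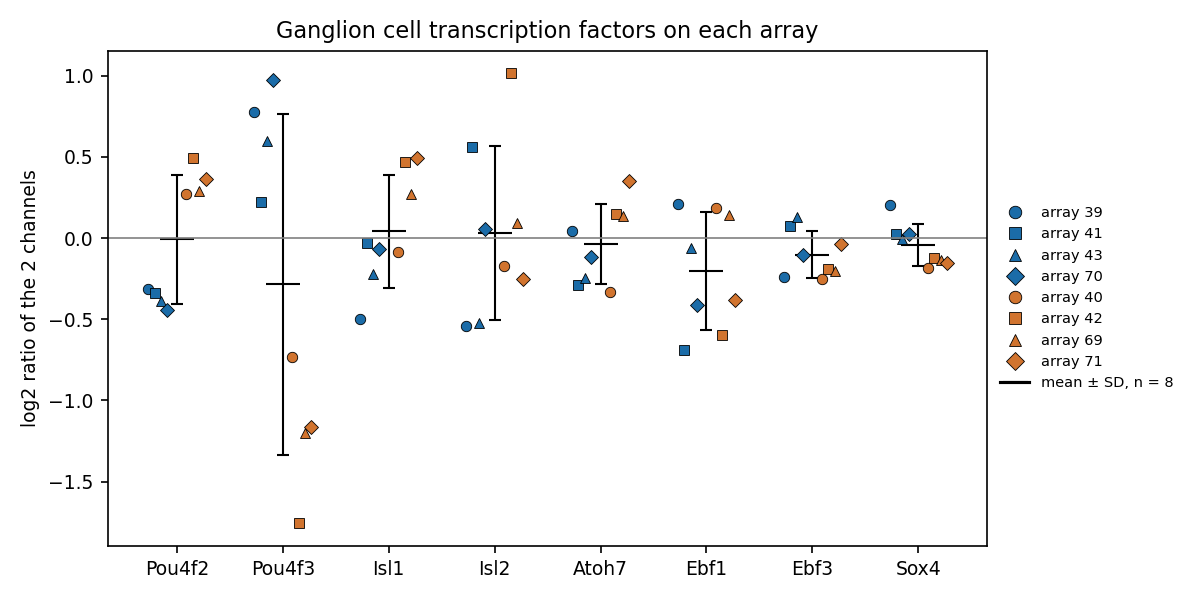
The log2 ratio of each measured factor (vertical axis) on each of the 8 arrays, with arrays of set 1 in blue and of set 2 in orange, and the mean ± SD in black. Pou4f2 and Pou4f3 separate the sets in opposite directions, while Ebf1 and Isl2 do not separate them.

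Pou4f2 (Brn3b) is the POU-domain factor that most ganglion cells need for their differentiation and survival in the mouse. Its log2 ratio was -0.31, -0.34, -0.39 and -0.45 on arrays 39, 41, 43 and 70, against 0.27, 0.49, 0.29 and 0.36 on arrays 40, 42, 69 and 71. All values of set 1 were negative and all values of set 2 positive, so the sets did not overlap and the mean over all arrays was close to 0 (-0.01 ± 0.40, SD, n = 8). The limma interval at 95% ran from -0.29 to 0.27, which bounds the mean at 1.22-fold on the negative and 1.21-fold on the positive side. Once the set, found in these same values, was fitted as a covariate the interval narrowed, running from -0.11 to 0.09. The difference between the sets was -0.73 on the log2 scale (1.65-fold), larger in size than that of 88.3% of genes.

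Pou4f3 (Brn3c), the paralog found in fewer ganglion cells and needed by the hair cells of the ear, had the widest spread of the factors. Its log2 ratio was 0.77, 0.22, 0.60 and 0.97 on arrays 39, 41, 43 and 70, against -0.73, -1.76, -1.20 and -1.16 on arrays 40, 42, 69 and 71. Again the sets did not overlap, here with set 1 positive and set 2 negative. The set means were 0.64 ± 0.32 in set 1 and -1.21 ± 0.42 in set 2 (SD, n = 4 each), a difference of 1.85 (3.62-fold) that was larger in size than that of 99.6% of genes. The mean over the 8 arrays was -0.29 ± 1.05, and its interval from -0.98 to 0.41 leaves room for a change of up to 1.98-fold on the negative side (limma adjusted p = 0.834). With the set as a covariate the interval was -0.55 to -0.02, with an unadjusted p of 0.0359 and a limma adjusted p of 0.205. At that unadjusted threshold the same model had 20.5% of all genes. Because the sets came from these same values, this interval and its p are a description and no test.

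The paralogs thus lay apart on every array. Pou4f2 minus Pou4f3 was negative on 4 of 4 arrays of set 1 (mean -1.01) and positive on 4 of 4 arrays of set 2 (mean 1.57). Each gene rests on 1 probe.

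**Figure D2:**
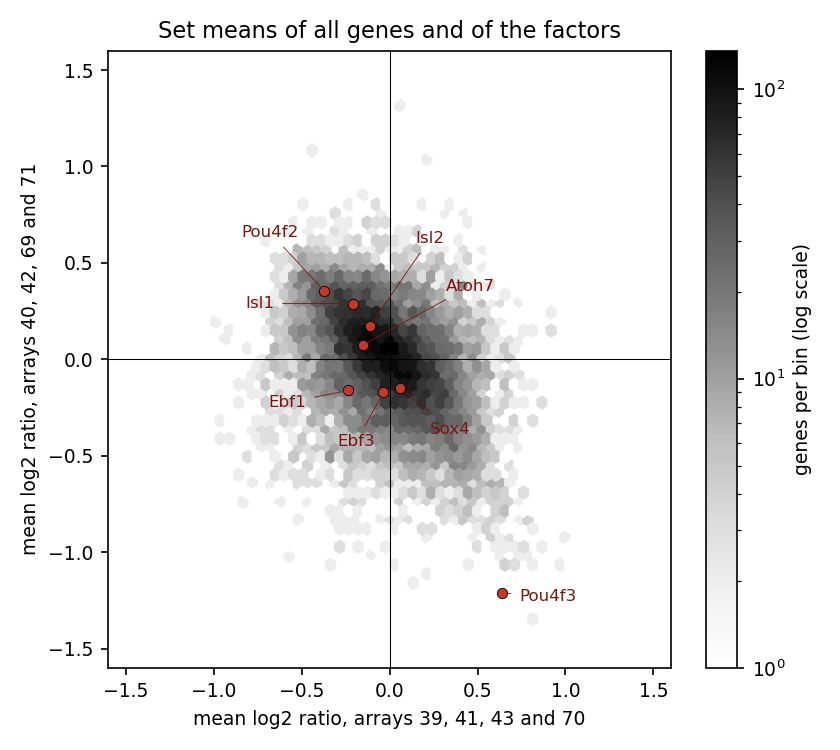
Mean log2 ratio in arrays 39, 41, 43 and 70 (horizontal axis) against the mean in arrays 40, 42, 69 and 71 (vertical axis), with all genes as grey bins and the 8 factors as red points; axes end at 1.6 and leave out 36 of 14800 genes. The cloud of all genes slopes downward, and Pou4f3 lies at its lower right edge while the other factors lie within it.

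Isl1, the LIM-homeodomain partner of Pou4f2, leaned the same way as Pou4f2 between the sets. Its log2 ratio was -0.50, -0.03, -0.22 and -0.07 on arrays 39, 41, 43 and 70, against -0.08, 0.47, 0.27 and 0.49 on arrays 40, 42, 69 and 71. Set 1 was negative throughout and set 2 was positive on 3 of 4 arrays, with array 40 inside the range of set 1. The mean was 0.04 ± 0.35 with an interval from -0.21 to 0.29 (limma adjusted p = 0.962).

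Isl2, its paralog, which in the mouse marks ganglion cells whose axons cross to the opposite side of the brain, did not follow the sets. Its log2 ratio was -0.54, 0.56, -0.52 and 0.05 on arrays 39, 41, 43 and 70, against -0.17, 1.02, 0.10 and -0.25 on arrays 40, 42, 69 and 71. The values of the sets overlapped widely, and arrays 41 and 42 were the highest. The mean was 0.03 ± 0.54, with an interval from -0.34 to 0.40 (limma adjusted p = 0.979). Isl1 minus Isl2 was 0.01 ± 0.44 on average and positive on 5 of 8 arrays, so the paralogs differed by less than the spread between arrays.

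Of the members of the early B-cell factor family, helix-loop-helix proteins, Ebf1 had the lowest p of all 8 factors on the plain mean, while with set as a covariate and over averages of neighbouring arrays that place was taken by Pou4f3. The log2 ratio of Ebf1 was 0.21, -0.69, -0.06 and -0.41 on arrays 39, 41, 43 and 70, against 0.19, -0.59, 0.14 and -0.38 on arrays 40, 42, 69 and 71. Arrays with neighbouring title numbers carried close values, and the set means hardly differed (-0.24 in set 1 and -0.16 in set 2). The mean was -0.20 ± 0.36, with an interval from -0.46 to 0.06 and an unadjusted p of 0.121 (limma adjusted p = 0.575). Ebf3 stayed within a narrow range, from -0.25 to 0.13, negative on 6 of 8 arrays, with a mean of -0.10 ± 0.15 and an interval from -0.25 to 0.04 (limma adjusted p = 0.617). Ebf2, another member, from the wider list described below, lay at 0.04 on average, and Ebf1 minus Ebf3 was positive on 3 of 8 arrays.

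Atoh7, the basic helix-loop-helix factor of ganglion cell progenitors, ranged from -0.33 on array 40 to 0.35 on array 71. Both extremes were arrays of set 2, so that set spanned the whole range of set 1. Its mean was -0.04 ± 0.25, with an interval from -0.23 to 0.16 (limma adjusted p = 0.949).

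Sox4, an HMG-box factor that acts with Sox11 in the making of ganglion cells in the mouse, had the smallest spread as a mean of its probes. It ranged from -0.19 to 0.20 with a mean of -0.04 ± 0.13 (limma adjusted p = 0.893). Set 1 (0.06 ± 0.10) lay above set 2 (-0.15 ± 0.03, SD, n = 4 each) without overlap. Sox11 lay close by, and Sox4 minus Sox11 was 0.04 ± 0.15 over the 8 arrays.

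The small spread of Sox4 was an average over probes that disagreed. The means of the 6 probes over the 8 arrays lay between -0.11 and 0.07, yet the differences between the sets ran in opposite directions. Set 1 lay above set 2 without overlap for 2 probes, below it without overlap for 2, and the sets overlapped for the other 2. Probe a had 0.39 in set 1 and -0.56 in set 2, and probe b had 0.55 in set 1 and -0.60 in set 2. Probe c had -0.34 in set 1 and 0.31 in set 2, and probe e had -0.33 in set 1 and 0.10 in set 2. Probes a, c and f are assigned to the same RefSeq transcript, and their differences between the sets were 0.95, -0.66 and -0.07. Probes b, d and e are assigned to sequence tags. The difference between the sets in Sox4 thus depended on the probe, and the factors with a single probe allow no such comparison.

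**Figure D3:**
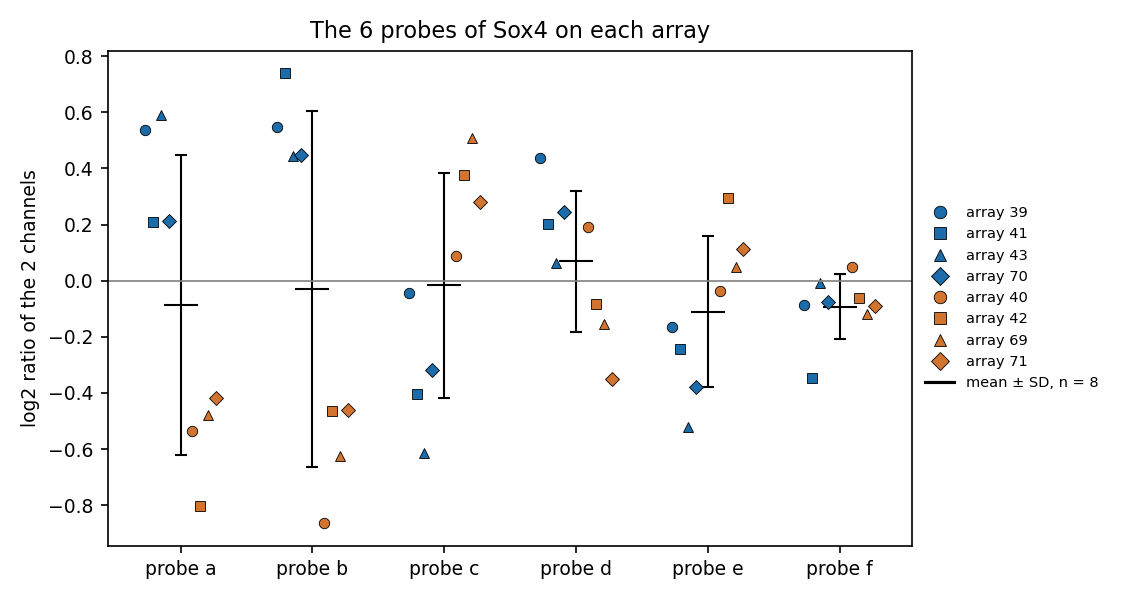
The log2 ratio (vertical axis) of each of the 6 Sox4 probes on each array, with set 1 in blue, set 2 in orange and the mean ± SD in black. Probes a and b have set 1 above set 2 and probes c and e have it below, while all 6 means stay near 0.

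Across the factors, the sets did not overlap for 3 of 8, with set 1 lower for Pou4f2 and higher for Pou4f3 and Sox4. Over all genes 34.8% had sets that did not overlap, 18% with set 1 lower and 16.8% with it higher, so the share among the factors is near that of all genes. When the signs of set 2 were turned before averaging, limma called 3 of 8 factors (Pou4f2, Pou4f3 and Isl1), where it called 28.1% of all genes. The sets were found in these same values, so this count is a description and no test of the difference between them. The median size of the difference between the sets was 0.26 for the factors and 0.30 for all genes.

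The spread of each factor was split into a part between the sets, a part between arrays with neighbouring title numbers and a rest. Neighbours were 39 with 40, 41 with 42, 43 with 69 and 70 with 71, a pairing that the labels do not give. Arrays 43 and 69 are neighbours only in the order of the 8 titles, as the numbers between them are absent. The sets held 96.2% of the sum of squares of Pou4f2, 89.2% of that of Pou4f3 and 74.6% of that of Sox4. The neighbouring numbers held 97.2% for Ebf1 and 79.6% for Isl2. Isl1 had 58.3% between the sets and 41.0% between the neighbouring numbers, and the rest was the greater part only for Atoh7 (58.4%). Over all genes the median was 40.1% between the sets, 34.3% between neighbouring numbers and 10.3% for the rest. The parts rest on unequal numbers of contrasts, fewest for the sets. A share can thus be set beside the same part over all genes, but not directly beside another part.

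The pairs behind these shares can be read from the averages. Ebf1 averaged 0.20 on arrays 39 and 40, -0.64 on 41 and 42, 0.04 on 43 and 69, and -0.40 on 70 and 71. Isl2 averaged -0.36 on arrays 39 and 40, 0.79 on 41 and 42, -0.21 on 43 and 69, and -0.10 on 70 and 71. Arrays 41 and 42 were thus the extreme ones for both, low for Ebf1 and high for Isl2. The same arrays stood apart in 13 microglia and macrophage markers, whose mean was 0.97 and 0.83 on arrays 39 and 40, -0.33 on both 41 and 42, and from 0.18 to 0.26 on the other 4. The part of this in Ebf1 and Isl2 was not tested.

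**Figure D4:**
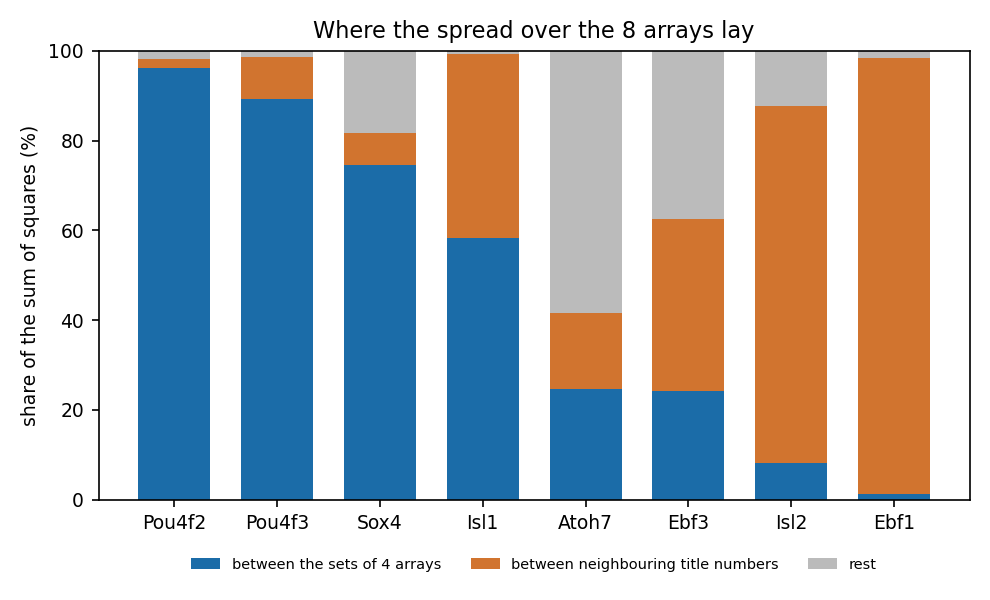
Share of each factor's sum of squares over the 8 arrays (percent, vertical axis) that lay between the sets of 4 arrays (blue), between arrays of neighbouring title numbers (orange) and in the rest (grey). Pou4f2 and Pou4f3 are nearly all blue, Ebf1 nearly all orange.

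Taking the factors in order of their means as deposited, Pou4f3 (-0.29), Ebf1 (-0.20) and Ebf3 (-0.10) came lowest, followed by Sox4 and Atoh7 (both -0.04), Pou4f2 (-0.01), Isl2 (0.03) and Isl1 (0.04). Every interval of the mean included 0, and neighbours in this order did not differ beyond their spread. The order rests on set 2 as deposited: with its signs turned, Pou4f2 came lowest (-0.36) and Pou4f3 highest (0.93), Ebf1 lay at -0.04 and Ebf3 at 0.067. It also rests on array 42, without which Pou4f3 lay at -0.08, Ebf1 at -0.14 and Isl2 at -0.11.

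**Figure D5:**
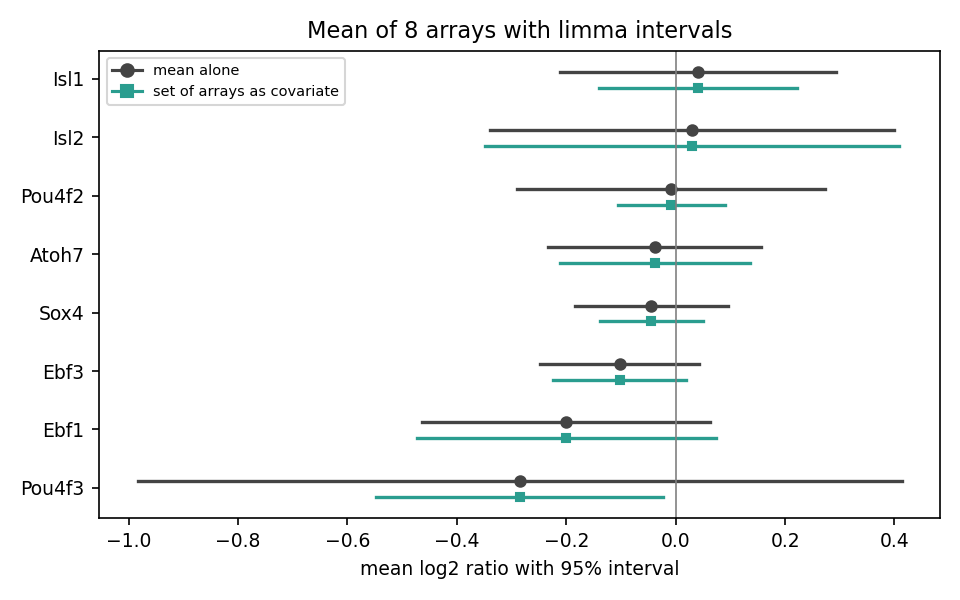
Mean log2 ratio over the 8 arrays (horizontal axis) with its limma interval at 95% for each factor, from the mean alone (black) and with set fitted as a covariate (green). All intervals of the mean alone include 0, and with the covariate that of Pou4f3 ends at -0.02. The sets were found in these same values, so the green intervals are descriptions.

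The nearest patterns were sought as the smallest mean absolute difference of log2 ratio over the 8 arrays among the other 14799 genes. For Pou4f2 they were those of Inpp5e (0.05) and Zbtb5 (0.05), and for Pou4f3 those of Or8g36b (0.13) and Marcksl1 (0.16). Isl1 was nearest to Cirbp (0.06) and Coq4 (0.07), and Isl2 to Snx7 (0.15) and Rhbdd2 (0.16). The nearest genes lay at 0.06 (Mrpl47) and 0.07 (Or3a1f) from Atoh7. Ebf1 had Pex5l and Cnot10 (both 0.11), Ebf3 had Rsad2 (0.04) and Usp51 (0.05), and Sox4 had Lrrc61 (0.03) and Spry2 (0.04). None of these 16 genes is another of the factors.

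A wider list of 30 other ganglion cell transcription factors had 22 measured members, of which limma called 0, where 2.12% of all genes were called, with 2 at an unadjusted p under 0.05 (Irx2 and Zic1), where 13.1% of all genes were. Their median was 0.03. The largest means in size were those of Tbx20, a T-box factor, at -0.35 ± 0.69 and of Bhlhe22, a basic helix-loop-helix factor, at 0.21 ± 0.47, both not called. Without arrays 39 and 40, Bhlhe22 was called at 0.44 (limma adjusted p = 0.0378), where 2.63% of all genes were called. Pou4f1, the remaining POU4 paralog, had no probe assigned to it alone.

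Among 33 measured of 39 transcription factors of other retinal cell types, 1 was called, on the positive side (3.03%, beside 2.12% of all genes), and 8 had an unadjusted p under 0.05, where 13.1% of all genes did. It was Otx2, needed by photoreceptors and bipolar cells, at 0.49 ± 0.21 and positive on 8 of 8 arrays (limma adjusted p = 0.0137). Otx2 was not called with each probe fitted alone, where the lowest limma adjusted p of the list was 0.0771. Nor was it called over averages of neighbouring arrays, where the lowest limma adjusted p of the list was 0.0994. The photoreceptor factors Nrl at 0.32 ± 0.27 and Crx at 0.29 ± 0.33 were not called. Without arrays 39 and 40, 3 were called, which were Otx2, Nrl (0.45, limma adjusted p = 0.0279) and Meis2 (0.45, limma adjusted p = 0.0232). With set as a covariate 4 of the 33 were called, where 6.2% of all genes were. Otx2, Crx and Thrb among them had positive means, while Rxrg had a negative one (-0.24) and was negative on 8 of 8 arrays. The difference between these factors and those of ganglion cells was not tested.

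Genes that ganglion cells switch on as they differentiate and grow axons had 14 measured of 15 members, with 10 means on the negative side. Many of them, such as Nefl, Sncg, Gap43 and Stmn2, are also among the ganglion cell markers below, and Irx2 is also in the wider factor list above. These lists are therefore not independent of each other. limma called 1, where 2.12% of all genes were called, the adhesion molecule L1cam, at -0.61 ± 0.25 and negative on 8 of 8 arrays (adjusted p = 0.0108). The call was lost when neighbouring arrays were averaged (lowest limma adjusted p of the list 0.0978). The median was -0.08. Over the list, 4 genes had an unadjusted p under 0.05, Nefl among them, where 13.1% of all genes did. As examples of genes that depend on Pou4f2 in the mouse, Nefl lay at -0.33, Sncg at -0.09 and Gap43 at 0.15. None of them was called, and set 1 differed from set 2 by -0.65, -0.57 and 0.61.

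Markers of cell types on the same arrays give the setting of these values. limma called 1.57% of all genes on the negative and 0.547% on the positive side, and 13.1% had an unadjusted p under 0.05. When neighbouring arrays were averaged, 0 of all genes were called, so every marker call below was lost. Of 12 ganglion cell markers 2 were called, Slc17a6 and Thy1, both negative, 3 had an unadjusted p under 0.05, and the list mean was negative on 8 of 8 arrays, from -0.43 to -0.06. Of 16 rod and cone markers 2 were called, Rp1 and Gnat2, both positive, 9 had an unadjusted p under 0.05, and the list mean was positive on 8 of 8 arrays, from 0.04 to 0.60. Of 10 bipolar markers Trpm1 was called and of 12 Müller glia and astrocyte markers Rlbp1, both positive, with 2 and 3 at an unadjusted p under 0.05. The uncalled ones among these were negative, Pcp2 at -0.37 in the bipolar list, and Dkk3 at -0.23 and Aldh1l1 at -0.13 in the glial list. Of the glial means 7 were negative and 5 positive, and of the bipolar means 3 and 7. limma called none of 13 amacrine and 13 microglia markers (4 and 5 had an unadjusted p under 0.05), where the largest means were Gad2 at 0.51 and Slc17a8 at 0.43, and Itgam at 0.74 and P2ry12 at 0.65. Between the sets, rod and cone markers averaged 0.42 in set 1 and 0.15 in set 2, Müller glia markers 0.13 in set 1 and -0.14 in set 2, and ganglion cell markers -0.17 in set 1 and -0.20 in set 2. Their part in the set differences of Pou4f2 and Pou4f3 was not tested.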

How the data were processed

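The authors deposited log2 ratios of the 2 channels, centred close to 0, for 41048 probes on 8 arrays. The scale was worked out from the values: of 88 distances between the commonest values of an array, 67 lay on a log2 ratio of whole numbers up to 12 within 0.0006, while 16 fitted log10 and 0 the natural logarithm. Array medians lay between -0.08 and 0.03. No source used here states the scanner software, the background correction or the method of normalization.

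Probes were named through a platform table (23374 with 1 symbol, 48 with several, 17626 with none), updated by gene identifier through RefSeq (23327 matched). Probes of a gene were averaged, and genes needed values on at least 6 arrays. An intercept model was fitted over all 14802 genes with limma 3.58.1 in R 4.3.3 (lmFit, eBayes, Benjamini-Hochberg, adjusted p under 0.05). The code was first run on simulated data, in which the noise of each array was drawn independently. That run therefore does not cover dependence between neighbouring arrays or technical subreplicates. Plots used matplotlib 3.10.9 under Python 3.11.15. No member probe held a missing value, an exact 0 or a value past 15 in size, the end of the scale.

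Members and lists were chosen with earlier results of these data known. Named were all members and, per list, at most the 3 largest called genes or, with none called, the 2 largest. Genes beyond this rule (Irx2, Zic1, Ebf2, Sox11, Nrl, Crx, Meis2, Rxrg, Thrb, Nefl, Sncg, Gap43, Pcp2, Dkk3, Aldh1l1 and those with a single far array) were chosen after their values were seen. Alternatives are given in the closing section. The number of arrays limits the precision.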

Additional observations from a re-analysis of the deposited data

Results flagged for a closer look

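Over the 8 arrays, 92 genes, Sox4 probes and list means were searched for a single array far from the others, and 6 were found, where chance flags about 1 group in 20. Probe f of Sox4 stood at -0.35 on array 41. Of other ganglion cell transcription factors, Irx6 stood at 2.70 on array 70, Myt1 at -0.57 on array 39 and St18 at -1.07 on array 40. Prox1, a factor of horizontal and amacrine cells, stood at -1.10 on array 41, and Stmn2, an axonal microtubule regulator, at 0.66 on array 40. None of the 8 factors had such an array.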

How the results depend on the processing

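Under the 19 alternatives run, 8 of them leaving out 1 array, 0 of 8 factors were called, except with the signs of arrays 40, 42, 69 and 71 turned. That gave 3 called factors, Pou4f2 at -0.36, Pou4f3 at 0.93 and Isl1 at -0.25, where 28.1% of all genes were called, and the sets behind it were found in the same values. Turning also reversed Isl2 to -0.14, Ebf3 to 0.067 and Sox4 to 0.11, none called. The lists, in the order of other ganglion cell factors, factors of other cell types and axon genes, had 2, 8 and 4 called members with turned signs, and 0, 4 and 2 with the set as a covariate. Over averages of neighbouring arrays they had 0, 0 and 0, where 0 genes of all were called, and factors of other cell types had 0 with single probes. Without arrays 39 and 40, an alternative chosen after seeing the data, the first 2 lists had 1 and 3 called members and the factors 0. Leaving out 1 array kept the counts at 0, 0, 1 and 1 for the factors and the lists. It moved uncalled means across 0: Pou4f2 from -0.080 to 0.054 (positive without 39, 41, 43 or 70), Isl1 from -0.024 to 0.12 (negative without 42 or 71), Isl2 from -0.11 to 0.11 (negative without 41 or 42) and Atoh7 from -0.094 to 0.0037 (positive without 40). Pou4f3 ran from -0.47 without 70 to -0.08 without 42. Centring, scaling, the median of probes, complete values, robust moderation and removal of values past the end of the scale reversed no factor. Large and small cells were paired within each array, since every value is a ratio of the 2. The labels give no further pairing between arrays. Signal over background could not be read from ratios.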
